A study of Mus musculus with 11 samples.

Results

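The levels of 9 genes of the synaptic vesicle were followed through a mouse stroke and its treatment with levetiracetam, an anti-seizure drug. They are the 3 members of the SV2 family, Sv2a, Sv2b and Sv2c, and 6 genes of the vesicle release machinery, Syt1, Syn1, Snap25, Stx1a, Cplx1 and Cplx2. They were picked by symbol from the deposited expression table and are 9 of its 22377 genes. Each symbol had 1 row, and all 9 genes were well above the lowest measurable level in every library, with 290 tags or more per gene and library.

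The series measured the cerebral cortex of male C57BL/6N mice after photothrombosis (PT), in which rose bengal (35 mg/kg), a dye that is activated by light, was given and a circle 3.5 mm across over the left parietal lobe was lit at 565 nm for 30 min. RNA of the cortex was read by CAGE (cap analysis of gene expression), a method that counts a tag at the capped 5′ end of a transcript. There were 11 libraries with 1 library per group: a naive group without PT, and the infarcted and the non-infarcted side in 5 states. The states were 7 d after PT, 7 d after PT with levetiracetam (LEV), 1 m after PT, 1 m after PT with LEV, and 2 m after PT following 2 weeks of withdrawal from LEV. All groups but the naive one carried PT, and there was no group with LEV but without PT. Mice of 8 to 10 and of 65 to 85 weeks were used, but the labels do not give the age behind a library, how many mice it holds, or whether both sides came from the same mice. For LEV the design text gives drinking water at 5 mg/mL for 2 weeks from 1 m after PT and 1 week of withdrawal, which differs from the labels. The labels were followed here.

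Neurotransmitter is stored in synaptic vesicles and released when a vesicle fuses with the membrane of the nerve terminal. Fusion is driven by SNARE proteins, which zip together between vesicle and membrane, is started by calcium through synaptotagmin, and is held ready and supported by complexins. SV2 proteins are glycoproteins of the vesicle membrane, and SV2A is the binding site of levetiracetam in the brain. Whether the transcripts of the drug's target and its partners changed with the stroke, with time and with the drug was asked by comparing sides, states and treatment.

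Values are CPM, the tags of a gene scaled to the total of its library. Library totals ran from 12928291 to 21000367 tags, and 92.3% to 97.3% of them lay in listed genes. Since no group has a second library, the tests used states or times as repeats. Their p-values rest on the spread between those libraries and on a spread borrowed from other genes. In the tests of LEV and time, with 1 residual degree of freedom, most of the spread is borrowed. None of the p-values measures a spread within a group. Libraries also stood apart in a way that the labels do not explain. The naive and the 1 m libraries (5 libraries) separated from the 7 d and the 2 m libraries (6 libraries) without overlap for 10.9% of the 16221 genes with a mean of at least 1 CPM. This division was seen in the same data, so the share of genes describes it and does not test it. Any comparison of 1 m with 7 d, or of 7 d or 2 m with naive, crosses this division, so time and library set cannot be told apart. The non-infarcted library at 2 m stood apart too: Rorb, a transcription factor of layer 4 cortical neurons, was at 9.96 CPM there against 36.2 to 71.3 CPM in the other 10 libraries. Ttr, a choroid plexus marker, was at 349.7 CPM in the naive and 195 CPM in the non-infarcted 1 m LEV library, against at most 24.7 CPM elsewhere.

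The promoters of the SV2 genes are shown because SV2A is the target of the drug and the family members differ in level. Each window runs from 250 bases before to 50 bases after the RefSeq start of the gene, on the gene's strand, in build GRCm38.p6. A window was found for 7 of the 9 genes. The Sv2a window is chr3:96180977-96181276 (plus strand), that of Sv2b chr7:75309213-75309512 (minus strand) and that of Sv2c chr13:96132528-96132827 (minus strand). Capitals mark matches on either strand to 2 motifs that do not overlap here: the GC box of Sp-family factors, spelled GGGCGG, and the core of the TATA box, spelled TATAAA. A match on the opposite strand shows as the reverse complement.
Sv2a: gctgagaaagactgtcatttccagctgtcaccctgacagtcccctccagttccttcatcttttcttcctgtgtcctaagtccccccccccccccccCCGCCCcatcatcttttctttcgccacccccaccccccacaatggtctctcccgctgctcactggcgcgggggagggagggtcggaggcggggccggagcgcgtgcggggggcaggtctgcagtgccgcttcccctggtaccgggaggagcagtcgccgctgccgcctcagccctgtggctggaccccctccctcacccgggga
Sv2b: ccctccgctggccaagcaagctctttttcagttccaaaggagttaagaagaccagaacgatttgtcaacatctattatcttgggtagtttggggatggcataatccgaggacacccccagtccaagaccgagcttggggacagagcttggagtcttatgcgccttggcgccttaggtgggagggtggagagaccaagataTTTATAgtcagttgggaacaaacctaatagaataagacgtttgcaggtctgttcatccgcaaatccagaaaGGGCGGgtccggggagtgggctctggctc
Sv2c: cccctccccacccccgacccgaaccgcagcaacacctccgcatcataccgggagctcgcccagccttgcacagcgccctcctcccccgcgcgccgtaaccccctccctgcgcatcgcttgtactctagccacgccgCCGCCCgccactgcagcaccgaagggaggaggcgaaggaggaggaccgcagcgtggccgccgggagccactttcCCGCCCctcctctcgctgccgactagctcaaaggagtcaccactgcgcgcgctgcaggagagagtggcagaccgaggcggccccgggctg
Sv2a held 1 GC box, Sv2c held 2, and Sv2b held 1 GC box and a TATA match on the opposite strand at position −50 from the start. Of all 32817 RefSeq windows of this length, 35.6% held a GC box and 13.6% a TATA match. The GC content was 68.0% for Sv2a, 51.3% for Sv2b and 71.7% for Sv2c. A match describes the letters of the window and is not evidence of a bound factor.

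Sv2a (ENSMUSG00000038486.9, GRCm38 chr3:96181151-96195521) encodes the vesicle protein that levetiracetam binds. It was at 137 CPM in the naive library. Its 5 infarcted libraries, in the order 7 d, 7 d LEV, 1 m, 1 m LEV and 2 m, held 107, 135, 132, 137 and 152 CPM, and the non-infarcted ones held 148, 158, 139.7, 142 and 129 CPM. The lowest value was that of the infarcted side at 7 d without LEV and the highest that of the non-infarcted side at 7 d with LEV, a span of 1.47-fold, and the sides overlapped.

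Sv2b (ENSMUSG00000053025.13, chr7:75114894-75309262), a family member with wide expression in the brain, was at 351 CPM in the naive library. In the same order of states its infarcted libraries held 271, 301, 324, 330.3 and 327 CPM and its non-infarcted libraries 352, 383, 349, 361 and 241 CPM. At 7 d and 1 m every infarcted library lay below every non-infarcted library, and at 2 m, where the non-infarcted library held its lowest value, the order was the opposite. Sv2c (ENSMUSG00000051111.16, chr13:95954594-96132577), which is known for high expression in the basal ganglia, was at 22.4 CPM in the naive library. It was at 19.0, 23.8, 24.7, 27.8 and 25.6 CPM on the infarcted side and at 23.9, 24.1, 22.4, 23.4 and 23.5 CPM on the non-infarcted side. The non-infarcted libraries were nearly level, and the infarcted side held both the lowest and the highest value.

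CAGE counts 1 tag per 5′ end whatever the length of the transcript, so tags of paralogues can be set side by side. Sv2b held 61.3% to 68.8% of the SV2 tags of a library, Sv2a 26.8% to 32.8% and Sv2c 4.28% to 5.97%. The order Sv2b, Sv2a, Sv2c was the same in all 11 libraries, and the lowest share of Sv2b was that of the non-infarcted library at 2 m.

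**Figure D1:**
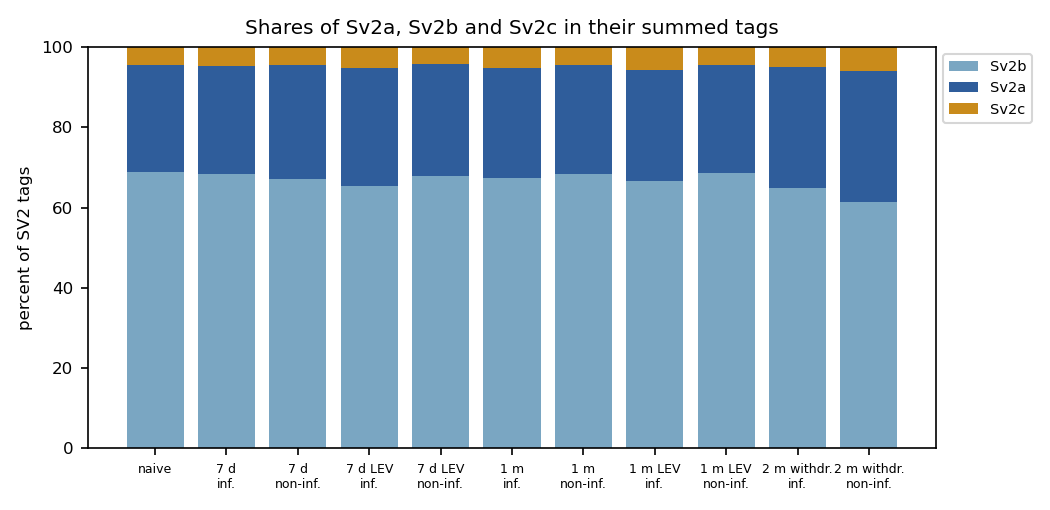
Shares of Sv2b, Sv2a and Sv2c in their summed tags (percent, stacked to 100) for each of the 11 libraries, 1 bar per library (inf., infarcted side; non-inf., non-infarcted side; withdr., withdrawn). Sv2b takes 61.3% to 68.8%, Sv2a 26.8% to 32.8% and Sv2c 4.28% to 5.97%.

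Syt1 (ENSMUSG00000035864.14, chr10:108497650-109010982) encodes synaptotagmin 1, the calcium sensor for fast release. It was at 1601 CPM in the naive library, at 1276, 1365, 1470.1, 1411 and 1542 CPM on the infarcted side and at 1648, 1958, 1507, 1502 and 1375 CPM on the non-infarcted side. Only the 7 d and 7 d LEV libraries of the non-infarcted side exceeded naive. Syn1 (ENSMUSG00000037217.15, chrX:20860511-20921004) encodes synapsin 1, which tethers vesicles in the reserve pool. It was at 357 CPM in the naive library, at 184, 196, 286, 356 and 195 CPM on the infarcted side and at 248, 231, 322, 406 and 152 CPM on the non-infarcted side. Its span of 2.68-fold was the widest of the 9 genes, and the naive and 1 m libraries (286 to 406 CPM) lay above all 7 d and 2 m libraries (152 to 248 CPM). Araf (126 to 208 CPM) and Timp1 (0.556 to 12.2 CPM) overlap the Syn1 locus on the opposite strand, and the use of strand in counting is not stated. No neighbour of the 9 genes had counts within 5% of theirs in all libraries.

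The SNARE genes were Snap25 and Stx1a, whose proteins sit on the membrane of the nerve terminal. Snap25 (ENSMUSG00000027273.13, chr2:136713453-136782428) was at 2457 CPM in the naive library, at 2153, 2369.7, 2123, 2113 and 2759 CPM on the infarcted side and at 3126, 3444, 2431, 2511 and 2411 CPM on the non-infarcted side. It had the most tags of the 9 genes in every library, and the non-infarcted 7 d and 7 d LEV libraries were the highest. Stx1a (ENSMUSG00000007207.10, chr5:135023482-135051100), syntaxin 1A, was at 121 CPM in the naive library, at 136, 156, 112, 78.6 and 191 CPM on the infarcted side and at 176, 208, 109.5, 90.4 and 186 CPM on the non-infarcted side. The naive and 1 m libraries (78.6 to 121 CPM) lay below all 7 d and 2 m libraries (136 to 208 CPM), the reverse of Syn1.

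The complexin genes followed Stx1a more closely than Syn1. Cplx1 (ENSMUSG00000033615.9, chr5:108518554-108550024) was at 354 CPM in the naive library, at 344, 415, 296, 294 and 414 CPM on the infarcted side and at 487, 553, 309.9, 346 and 351 CPM on the non-infarcted side. Cplx2 (ENSMUSG00000025867.8, chr13:54371349-54383917) was at 561 CPM in the naive library, at 532, 619, 533, 398 and 564 CPM on the infarcted side and at 757, 849.9, 519, 445 and 626 CPM on the non-infarcted side. Both genes were highest on the non-infarcted side at 7 d LEV and lowest on the infarcted side at 1 m LEV.

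**Figure D2:**
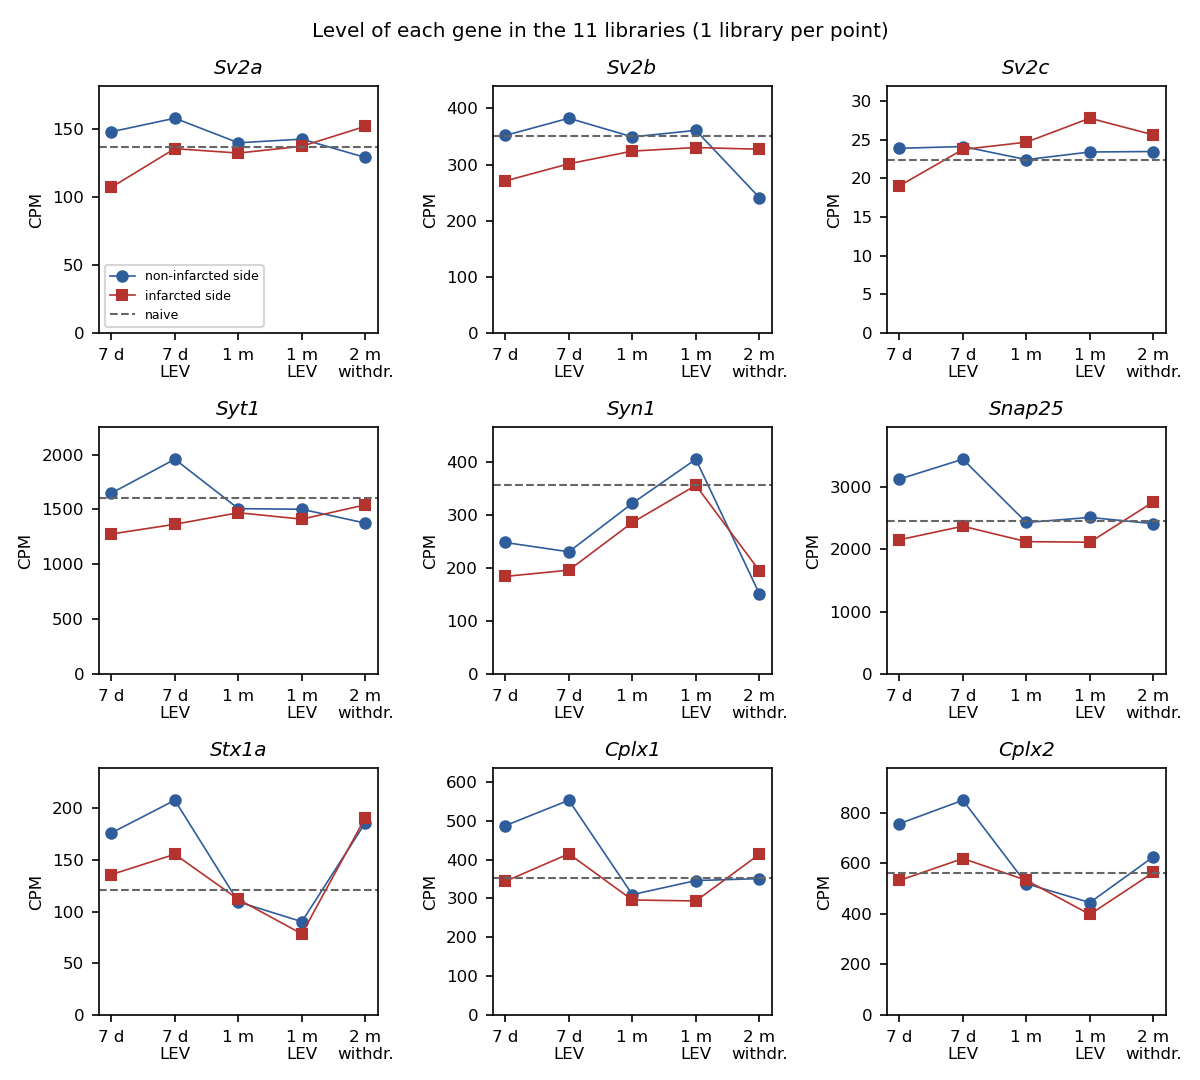
CPM of the 9 genes (y axes from 0, a scale per gene) in the 5 states on the infarcted side (red squares) and the non-infarcted side (blue circles), with the naive library as a dashed line. Each point is 1 library; lines join libraries of a side and are no time course of the same mice, and the non-infarcted side lies above the infarcted side for all 9 genes at 7 d.

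The infarcted and non-infarcted sides were compared within each state, as log2 differences averaged over 5 states. Over the 5 states, 0 of the 9 genes passed the test (limma, adjusted p under 0.05 over all genes), where 7.00% of the 16229 genes tested passed. The difference was below 0 for 8 of 9 genes, with a median log2 difference of −0.17 against 0.01 over all genes. The values farthest from 0 were those of Snap25 at −0.27 (95% interval −0.54 to 0.01, adjusted p = 0.231) and of Cplx2 at −0.25 (−0.45 to −0.04, adjusted p = 0.14). Sv2a was at −0.12 (−0.32 to 0.09, adjusted p = 0.496), Sv2b at −0.10 (−0.35 to 0.15) and Sv2c at 0.03 (−0.17 to 0.23). Cplx1 was at −0.20, Stx1a at −0.18, Syt1 at −0.17 and Syn1 at −0.13. Without the 2 m state Snap25 passed the test at −0.38 (adjusted p = 0.0476).

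Ratios within single states differed in size and direction. At 7 d the infarcted side held 0.689 to 0.797 times the tags of the other side, with all 9 genes below 1, and Snap25 had the lowest ratio (0.689, 95% counting interval 0.68 to 0.698). At 7 d LEV all 9 were again below 1, from 0.688 for Snap25 to 0.984 for Sv2c, and Sv2a was at 0.858 (0.813 to 0.906). At 1 m, 6 of 9 were below 1, all within 0.873 to 1.1. At 1 m LEV, 8 of 9 were below 1, with Sv2c above it at 1.19 (1.05 to 1.34). At 2 m only Cplx2 was below 1, at 0.901 (0.876 to 0.926), while Sv2b was at 1.36 (1.3 to 1.41) and Syn1 at 1.29 (1.22 to 1.36); TMM scaling and median centring each put 2 of 9 below 1. The 2 m ratios rest on the non-infarcted library that stood apart. These intervals cover counting error only.

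Markers of nerve cells differed between the sides in the same direction as the genes. At 7 d the median log2 side ratio of 8 pan-neuronal markers was −0.46, that of 8 excitatory markers −0.41 and that of 8 inhibitory markers −0.41, beside −0.43 for the 9 genes and −0.05 for all genes. At 2 m the pan-neuronal median was 0.30 and that of the 9 genes 0.19. Over the 5 states the median side difference was −0.15 for pan-neuronal, −0.16 for excitatory and −0.24 for inhibitory markers, and 0.40 for astrocyte, 0.90 for microglia, 2.98 for macrophage, 0.37 for oligodendrocyte, 0.31 for endothelial, 0.39 for striatum and 0.31 for thalamus markers, with −0.03 for hippocampus and −0.11 for choroid plexus markers. Summed pan-neuronal markers were at 1433 to 2047 CPM on the infarcted and 1586 to 2029 CPM on the non-infarcted side, and every neuronal marker had tags in every library. Their part in the side differences was not tested. In bulk tissue, fewer nerve cells, less RNA per cell and more tags from other cells cannot be told apart. CPM is a share of the library total.

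**Figure D3:**
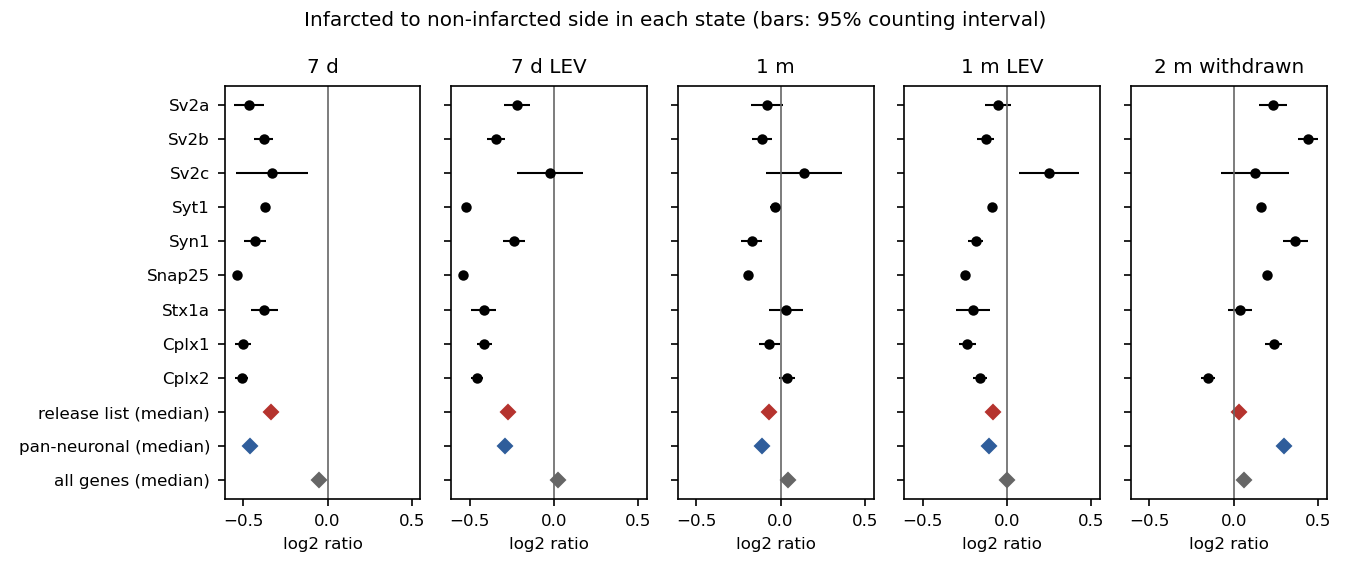
Log2 ratio of the infarcted to the non-infarcted side for the 9 genes (black points, bars are 95% counting intervals) in each of the 5 states, with the medians of the 64 further release genes (red), of 8 pan-neuronal markers (blue) and of all genes (grey). All 9 genes lie below 0 at 7 d and at 7 d LEV, and 8 of 9 lie above 0 at 2 m.

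Of 64 further genes of vesicle release, 2 were lower on the infarcted side and 0 higher. The 2 were Rims3 (−0.40, adjusted p = 0.0112) and Pclo (−0.38, adjusted p = 0.0283), genes of the active zone where vesicles dock. Of all 16229 genes tested, 128 were lower and 1008 higher, which together are the 7.00% that passed. Of the 64, 56 were below 0, with a median of −0.14. By group, 13 of 16 vesicle membrane genes, 12 of 13 SNARE genes and regulators, 14 of 15 active zone genes, 8 of 10 calcium sensors, 7 of 7 recycling genes and 2 of 3 transporters were below 0. The groups are as listed: Snap91, a clathrin adaptor, stands with the SNARE genes, and the SNAREs Snap47 and Stx7 stand with recycling. The count of 2 rose to 11 without 2 m, where the count over all genes went from 1136 to 1288. The release count fell to 0 without 7 d, without 7 d LEV, without 1 m or without state as a factor. All genes gave 103, 161, 71 and 245 there. The release count was 9 with median centring or edgeR and 10 with TMM, where all genes gave 1271, 1179 and 1121.

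Whether the side difference itself changed was tested at 7 d and 1 m, with 1 residual degree of freedom, a comparison added after the data were seen. None of the 9 genes passed (0 of 9, against 0.746% of genes tested). All 9 values were above 0, so the infarcted side was less below the other side at 1 m than at 7 d, with a median of 0.31 against 0.03 over all genes. Neuronal markers moved alike, with medians of 0.28 for pan-neuronal, 0.28 for excitatory and 0.25 for inhibitory markers. The median of the 64 further release genes was 0.23. The intervals of Cplx2 (0.42, 0.03 to 0.81, adjusted p = 0.333), Syt1 (0.38, 0.00 to 0.76, adjusted p = 0.366) and Sv2c (0.35, 0.01 to 0.69, adjusted p = 0.345) lay above 0 before adjustment. For LEV the same test called 0 of 9, against 0.00% of genes.

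Against the naive library, 0 of 9 genes passed on the infarcted side, where 0.00611% of genes tested passed, and 0 of 9 on the non-infarcted side, where 0.00% passed. With edgeR on the tags none of the 9 genes passed on the non-infarcted side either. With 1 naive library these intervals are wide: Syn1 was at −0.60 (−1.40 to 0.20) on the infarcted and −0.47 (−1.39 to 0.46) on the non-infarcted side. Sv2a was at −0.05 (−0.52 to 0.41) and 0.07 (−0.37 to 0.50), which does not show that its level equalled naive. On the infarcted side Sv2b was at −0.18, Sv2c at 0.09, Syt1 at −0.18, Snap25 at −0.10, Stx1a at 0.09, Cplx1 at −0.02 and Cplx2 at −0.10. On the non-infarcted side the same genes were at −0.08, 0.06, −0.01, 0.16, 0.27, 0.17 and 0.15. The interval of each of these values included 0. With the naive and 1 m libraries alone, a comparison added after the data were seen, 0 of 9 passed on either side, where 112 and 68 genes passed.

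Ratios of single libraries to naive had a wider range. On the non-infarcted side at 7 d, Stx1a stood at 1.46 (1.37 to 1.55) of naive, Cplx1 at 1.38, Cplx2 at 1.35 and Snap25 at 1.27, and at 7 d LEV at 1.72, 1.56, 1.52 and 1.4. Syn1 stood at 0.696 (0.668 to 0.725) and 0.647 (0.62 to 0.674) in the same libraries. At 1 m without LEV the ratios were 0.802 to 1.1 on the infarcted and 0.876 to 1.02 on the non-infarcted side. At 1 m LEV they were 0.649 to 1.24 and 0.746 to 1.14, with Stx1a the lowest on both sides. Ratios of 7 d and 2 m libraries to naive cross the 2 library sets.

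Levetiracetam was compared with no levetiracetam at 7 d and 1 m on each side. On the infarcted side 0 of 9 genes passed, where 0.518% of genes tested passed, and on the non-infarcted side 0 of 9, where 0.00628% passed. Sv2a, the drug's target, was at a log2 difference of 0.19 (95% interval −0.08 to 0.47, adjusted p = 0.79) on the infarcted and 0.06 (−0.24 to 0.36, adjusted p = 0.997) on the non-infarcted side. Sv2b was at 0.09 (−0.19 to 0.37) and 0.08 (−0.24 to 0.40), and Sv2c at 0.23 (−0.09 to 0.56) and 0.04 (−0.28 to 0.35). Of the other genes, Syn1 was at 0.20 on the infarcted and 0.11 on the non-infarcted side, Cplx1 at 0.13 and 0.17, Snap25 at 0.07 and 0.09, Syt1 at 0.02 and 0.12, Cplx2 at −0.10 and −0.03 and Stx1a at −0.16 and −0.02. A p that misses the threshold does not show that these levels were equal. The intervals are for the mean of the 2 times, and their width is borrowed largely from other genes. They need not hold the value at a single time. On the infarcted side the interval of Stx1a was −0.45 to 0.14, while its log2 ratio was 0.19 at 7 d and −0.51 at 1 m.

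By time, the LEV ratios of the genes on the infarcted side at 7 d were all above 1, from 1.06 for Syn1 to 1.27 (1.19 to 1.35) for Sv2a, where 35.9% of all genes were below 1. The ratio of Sv2a on the other side at 7 d was 1.07 (1.01 to 1.13). At 1 m the Sv2a ratios were 1.04 (0.977 to 1.1) and 1.02 (0.962 to 1.08). Stx1a and Cplx2 lay above 1 at 7 d and below it at 1 m: Stx1a was at 1.14 and 1.18 at 7 d but at 0.702 (0.653 to 0.754) and 0.825 (0.771 to 0.884) at 1 m on the infarcted and non-infarcted side, and Cplx2 at 1.16 and 1.12 but then at 0.747 and 0.856. Syn1 was at 1.06 and 0.929 at 7 d and at 1.24 and 1.26 at 1 m.

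**Figure D4:**
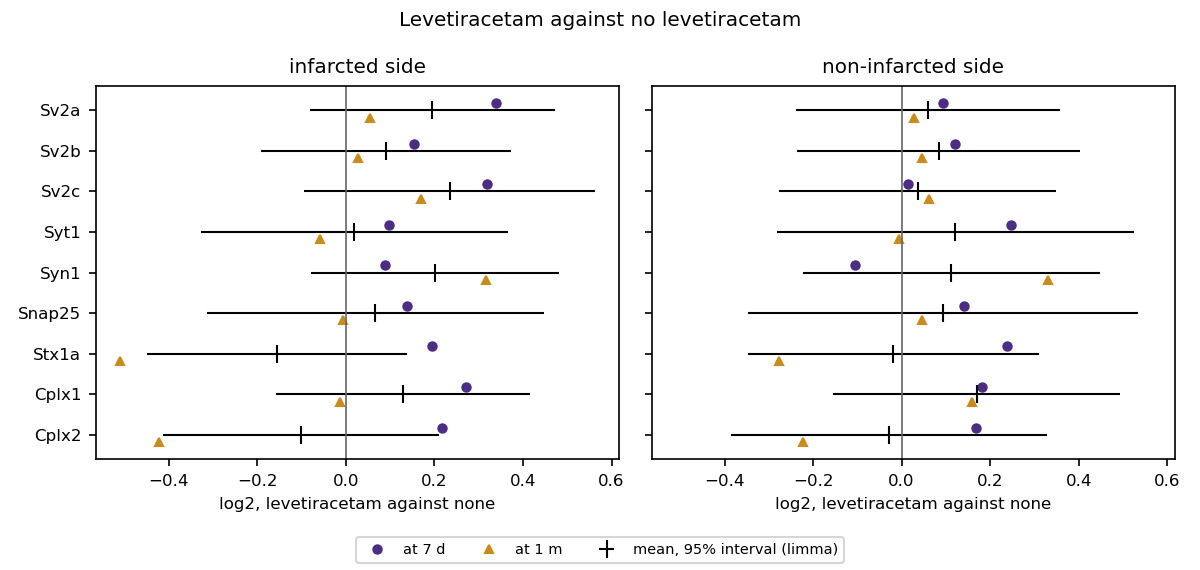
Log2 difference of LEV against no LEV for the 9 genes on the infarcted (left) and non-infarcted side (right), as the mean over 7 d and 1 m with its 95% interval from limma (black) and as the values at 7 d (circles) and 1 m (triangles). All 18 intervals include 0, and the 9 values at 7 d on the infarcted side lie above 0.

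Of the 64 further release genes, 1 was higher with LEV on the infarcted side: Slc17a7 (0.74, adjusted p = 0.0292), the vesicular glutamate transporter of cortical excitatory neurons. That side held 481 CPM at 7 d, 543 at 7 d LEV, 615 at 1 m and 1516 at 1 m LEV, and the other 609.5, 797, 861 and 1738 CPM, where the gene did not pass (0.70, adjusted p = 0.963). Of all 16399 genes tested on the infarcted side, 21 were higher and 64 lower, which together are the 0.518% that passed. The value of Slc17a7 rests mainly on the 1 m LEV libraries, and the call was kept under a limit of 5 CPM but under no other alternative. With that limit the spread was borrowed wholly from other genes, and 209 of 12991 genes passed. Markers of the striatum, a neighbouring region in which Sv2c is abundant, had a median LEV difference of 0.42 on the infarcted and −0.38 on the non-infarcted side, with 8 of 8 above and 8 of 8 below 0. Their sum was 469 to 869 CPM on the infarcted and 514 to 637 CPM on the non-infarcted side, and their part in the values of Sv2c was not tested. Pan-neuronal markers had a median LEV difference of 0.10 and −0.01, and macrophage markers, summed at 109.5 to 1151 CPM on the infarcted side, a median of −1.15 there.

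Time was compared as 1 m against 7 d on each side, a comparison that also runs between the 2 sets of libraries. On the infarcted side 2 of 9 genes passed, where 16.7% of genes tested passed: Syn1 was higher at 1 m by 0.74 (95% interval 0.46 to 1.02, adjusted p = 6.89e-05) and Stx1a lower at −0.63 (−0.92 to −0.33, adjusted p = 0.00134). On the non-infarcted side 4 of 9 passed, where 12.4% of genes tested passed: Stx1a at −0.94 (−1.27 to −0.61, adjusted p = 0.00153), Cplx2 at −0.74 (−1.09 to −0.38, adjusted p = 0.0114), Cplx1 at −0.66 (−0.99 to −0.34, adjusted p = 0.0118) and Syn1 at 0.59 (0.26 to 0.93, adjusted p = 0.0244). The 3 SV2 genes did not pass on either side, with Sv2a at 0.16 and −0.11, Sv2b at 0.19 and −0.05 and Sv2c at 0.29 and −0.06. Neither did Syt1 at 0.13 and −0.26 or Snap25 at −0.09 and −0.41. On the infarcted side Cplx1 was at −0.36 and Cplx2 at −0.32, and they did not pass there. In a fit of both sides together, where 4714 of 16228 genes passed, 4 of 9 passed: Syn1, Stx1a, Cplx1 at −0.51 (adjusted p = 0.00319) and Cplx2 at −0.53 (adjusted p = 0.0134). That fit counts the 2 sides of a state as separate repeats. They share time, drug and library set and may come from the same mice, so its p-values can be too small. In the fits by side, the median log2 difference of the 9 genes was 0.13 on the infarcted and −0.26 on the non-infarcted side, beside 0.08 and −0.23 for pan-neuronal markers and −0.04 and −0.06 for all genes.

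The naive library, which was without PT, lay with the 1 m libraries for Syn1 (357 CPM) and for Stx1a (121 CPM). Of the 9 genes, 2 did not overlap between the 2 library sets (Syn1 and Stx1a), where 10.9% of genes did not. Of the 64 further release genes 7 did not overlap; among them Syngr1, Syt3 and Syt9 were higher and Syt11, Erc2 and Ppfia2 lower in the naive and 1 m libraries. The test of time called 8 higher and 0 lower of the 64 on the infarcted side and 6 higher and 7 lower on the non-infarcted side, where 864 higher and 1868 lower of 16399 and 952 higher and 1027 lower of 15931 genes were called. The infarcted count of 8 was 4 without LEV as a factor, 13 with median centring and 22 with both sides in 1 fit. All genes gave 1547, 2648 and 4714 there. The non-infarcted count of 13 was 7 with edgeR, where all genes gave 1380. Syngr1, a vesicle membrane gene, ran at 107 to 161 CPM in the naive and 1 m libraries and at 46.2 to 79.3 CPM in the others.

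**Figure D5:**
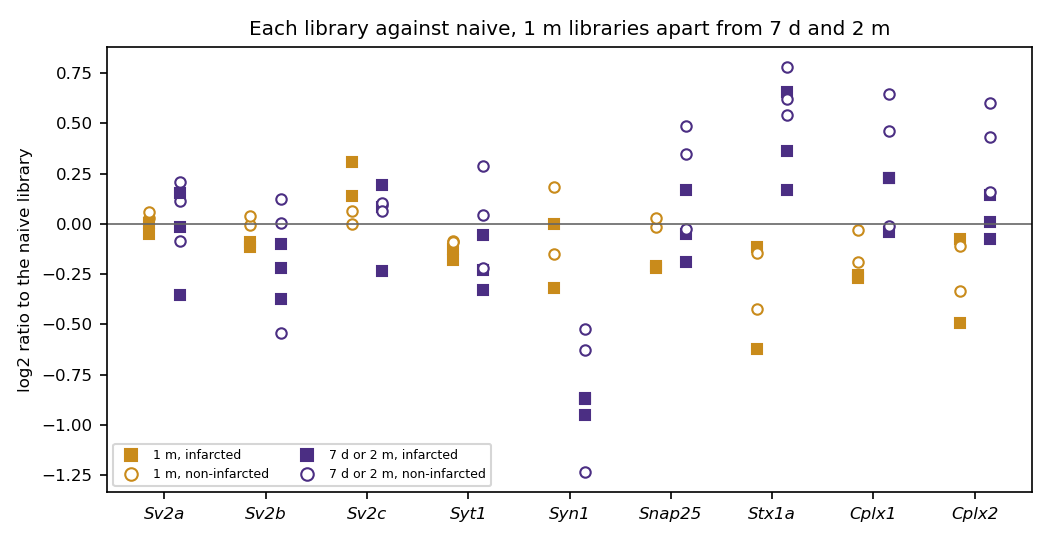
Log2 ratio of each library to the naive library for the 9 genes, with the 1 m libraries (orange) beside the 7 d and 2 m libraries (purple); filled squares are the infarcted and open circles the non-infarcted side. For Syn1 every 7 d and 2 m library lies below the 1 m libraries and for Stx1a every one lies above them, while the other 7 genes overlap.

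The promoters of Syn1 and Stx1a are shown because these genes set the library sets apart in opposite directions. The windows are chrX:20920869-20921168 (minus strand) for Syn1 and chr5:135023232-135023531 (plus strand) for Stx1a, from RefSeq on GRCm38.p6. Capitals mark matches on either strand to a GC box (GGGCGG), to the cAMP response element TGACGTCA, or to TTCAGCACC, the left part of the RE1 element to which the repressor REST binds.
Syn1: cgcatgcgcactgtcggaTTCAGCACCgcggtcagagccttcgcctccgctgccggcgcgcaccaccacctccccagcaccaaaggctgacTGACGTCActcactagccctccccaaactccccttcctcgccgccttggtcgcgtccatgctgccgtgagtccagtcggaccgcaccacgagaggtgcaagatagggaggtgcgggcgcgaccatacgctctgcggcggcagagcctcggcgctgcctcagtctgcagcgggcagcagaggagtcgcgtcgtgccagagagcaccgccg
Stx1a: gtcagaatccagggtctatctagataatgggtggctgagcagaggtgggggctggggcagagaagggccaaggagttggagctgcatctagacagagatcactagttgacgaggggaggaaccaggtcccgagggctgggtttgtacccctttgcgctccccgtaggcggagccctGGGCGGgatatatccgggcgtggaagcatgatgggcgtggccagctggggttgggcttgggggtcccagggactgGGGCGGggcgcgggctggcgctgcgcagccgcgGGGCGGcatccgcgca
Syn1 held a cAMP response element at position −159 and an RE1 left part at −232, and no GC box. Stx1a held 3 GC boxes and neither of the others. Of all 32817 windows, 1.79% held the cAMP response element and 0.372% the RE1 left part. The absence of a match says only that these letters are not in this window.

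Withdrawal was described as the 2 m library against the 1 m LEV library of the same side, with no test because each is 1 library. These pairs also cross the library sets. Past a 1.5-fold change, 2 of 9 genes differed on the infarcted side, where 21.5% of genes did so, and 2 of 9 on the non-infarcted side, where 23.4% did. Stx1a was higher at 2 m by 2.43-fold (2.29 to 2.59) and 2.06-fold (1.94 to 2.18), and Syn1 was at 0.548 (0.526 to 0.571) and 0.374 (0.357 to 0.391). Just short of the threshold stood Sv2b on the non-infarcted side at 0.669 and, above 1, Cplx2 at 1.42 and 1.41 and Cplx1 on the infarcted side at 1.41. Sv2a was at 1.11 (1.05 to 1.17) and 0.906 (0.856 to 0.958), which differ in direction.

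Ratios between paralogues were compared between the sides over the 5 states with a 2-sided exact sign-flip permutation test, for which 5 states cannot go below p = 0.063, so that no ratio could pass at 0.05. The log2 side difference of Sv2c to Sv2a was 0.15 ± 0.16 (SD, 5 states, exact p = 0.125, adjusted over the 3 ratios 0.375), above 0 in 4 of 5 states. Sv2b to Sv2a was at 0.01 ± 0.13 (exact p = 0.875, adjusted 0.875) and Cplx2 to Cplx1 at −0.05 ± 0.20 (exact p = 0.812, adjusted 0.875). Cplx2 held 56.3% to 64.3% of the tags of the complexin pair.

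Likeness across the 11 libraries is given by the Pearson correlation of log2(CPM + 1), as a description. The libraries share the division into sets and the side. Snap25 and Cplx1 had r = 0.91, Stx1a and Cplx2 r = 0.88, Cplx1 and Cplx2 r = 0.87 and Sv2a and Syt1 r = 0.81, while Syn1 and Stx1a had r = −0.79. Among genes of at least 10 CPM, those most like Sv2a were Ndrg3 (r = 0.93), Unc79, Nyap2, Gm19531 and Elmod1. Those most like Sv2b were Cxxc4 (r = 0.97), Vamp2 (r = 0.96), Zc3h6, Shisa4 and Coro2b, of which Vamp2 is the SNARE of the vesicle itself, and its lowest level was also in the non-infarcted 2 m library (626 CPM, against up to 1089 CPM). Those most like Sv2c were Adcy3 (r = 0.90), Camk2d, Scn4b, Col25a1 and Zkscan2. For the others, the nearest included Chrm1 for Syt1, Cdk5r1 and Cnih3 for Syn1, Nos1ap and Vipr1 for Snap25, Ube2v1 and Magi2 for Stx1a, Slx4 for Cplx1, and Snrk and Abcf2 for Cplx2. With median centring 2 of the 5 genes remained nearest to Sv2c (Camk2d and Col25a1), 0 of 2 to Syt1, and 1 of 2 to Snap25 (Nos1ap) and to Cplx2 (Snrk), and Adcy3 had r = 0.80 with Sv2c.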

How the data were processed

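The authors deposited 1 table of CPM (CAGE tags scaled to the library total) of 22377 genes in 11 cortex libraries. Build GRCm38 and the tools HISAT2 2.0.5, BWA 0.7.17 and DESeq2 1.20.0 are listed in the submitters' processing notes, with no role; whether counting used strand is not given in the sources used here. Every value is a whole number of tags within 0.01 of a tag (100.0% of values), so tags were recovered. A library's floor of 3 tags is 0.143 to 0.232 CPM. Of the gene identifiers, 99.8% were matched to GENCODE M21. Sequences come from RefSeq windows.

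log2(CPM + 1) of genes with a mean of at least 1 CPM in the libraries compared was tested with limma 3.58.1 in R 4.3.3 (moderated test with trend, Benjamini-Hochberg adjustment over all genes, called under 0.05). The side was tested with state as a factor, each side against the 1 naive library, and LEV and time with both as factors (1 residual degree of freedom, so the spread is borrowed largely from other genes). Differences on this scale understate the change of low genes. Ratios of 2 libraries carry exact 95% counting intervals on tags. The scripts were checked on simulated data. Alternatives were a pseudocount of 0.25, no limit or a limit of 5 CPM, median centring, TMM, edgeR 4.0.16 on tags, models without the second factor, both sides in 1 fit, and leaving out each state; scaling of ratio counts, naive against 1 m alone and the tests of the side difference between times and with LEV were chosen after seeing the data.

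The 9 genes, the 64 further release genes and 12 cell type marker lists were chosen with earlier results of these data known. All 9 genes are named in the tests of side, naive, LEV and time. Of the release genes the called ones, up to 6 by smallest p in each direction, or where none was called the 4 with the smallest p, could be named; of each marker list, the 2 of highest mean CPM; of all genes, the 5 most like each SV2 gene and the 2 most like each other member by Pearson correlation (mean of at least 10 CPM). Rorb and Ttr were named after their values were seen, as were Araf, Timp1 and the genes that did not overlap between library sets. Some genes that the rule names, and a planned paralogue ratio, are not reported here. Summaries used scipy 1.17.1, numpy 2.4.6 and pandas 2.3.3 under Python 3.11.15; figures used matplotlib 3.10.9.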

Additional observations from a re-analysis of the deposited data

Results flagged for a closer look

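The side difference of Sv2c had opposite signs at the 2 times. The infarcted side was lower at 7 d, at 0.797 and 0.984 of the other side without and with LEV, and higher at 1 m, at 1.1 and 1.19. The log2 side difference at 1 m exceeded that at 7 d by 0.37 in the ratios themselves. This was marked because both pairs of a time moved 1 way and both of the other time the other way, and that reading of signs was not tested; the limma value in the report (0.35) did not pass. The interval of the 7 d LEV ratio (0.859 to 1.13) and that of the 1 m ratio (0.941 to 1.29) include 1.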

How the results depend on the processing

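Each count of the 9 genes called was the same under the alternatives run, except in 2 cases. Leaving out each state in turn gave 0 to 1 genes for the side difference, the 1 being Snap25 without 2 m. A fit of both sides together, which counts the 2 sides of a state as separate repeats, gave 4 genes for time, set beside the count of the infarcted side alone. Leaving out a state moved the log2 side difference of Sv2b to Sv2a between −0.0343 and 0.0477 and of Cplx2 to Cplx1 between −0.0898 and 0.0330; the sign turned without 2 m for both ratios, and for Sv2b to Sv2a also without 7 d. The cause was not tested. Over all genes the number called ranged from 71 to 1288 for the side, 0 to 112 and 0 to 68 for naive, 0 to 209 and 0 to 3 for LEV, 1547 to 4714 and 1380 to 2027 for time, infarcted then non-infarcted side, and 0 to 332 for the change of the side difference. Members with a LEV ratio below 1 at 1 m on the infarcted side were 5, and 3 with TMM or median centring; at 7 d against naive on the non-infarcted side they were 1, and 2 with median centring. Time and LEV fits without a library have no residual degrees of freedom and were not run. The labels give no replicate numbers, so the sides were paired by state alone; without state as a factor 0 of 9 genes and 245 of all genes passed for the side. Depth limits only Sv2c, with as few as 290 tags; 1 library per group limits every comparison.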

Other observations

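Of the 10 further calcium sensors, 3 passed in the comparison of time on the infarcted side, where 16.7% of all genes passed, and these were higher at 1 m: Syt3 (0.59, adjusted p = 0.00579), Syt7 (0.50, adjusted p = 0.00656) and Syt9 (0.71, adjusted p = 0.0111) in limma. On the non-infarcted side 1 of the 10 calcium sensors was called higher and 1 lower. Snap91, a clathrin adaptor of vesicle recycling, was also higher at 1 m, by 0.64 on the infarcted and 1.10 on the non-infarcted side (adjusted p = 0.00132 and 0.000419). On the infarcted side it went from 124 CPM at 7 d to 148 CPM at 1 m without LEV. With LEV it went from 130 to 265 CPM there, so the value rests mainly on the 1 m LEV library. Without LEV as a factor Snap91 did not pass on the infarcted side (limma, adjusted p = 0.103). On the non-infarcted side 5 of 15 active zone and priming genes were lower at 1 m, namely Unc13a (−0.55), Unc13c (−0.73), Rims2 (−0.52), Erc2 (−0.56) and Ppfia2 (−0.74), while Pclo was higher (0.57), where 12.4% of all genes passed in either direction. With edgeR on the tags Unc13a, Rims2, Erc2 and Pclo did not pass on that side. On the infarcted side 0 of the 15 active zone and priming genes were called lower and 1 higher. These values cross the library sets, and time and library set cannot be told apart.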
